A study of Homo sapiens with 480 samples.

Results

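Cholesterol and fatty acid synthesis was followed through 29 genes, out of 27021 gene rows, in single human fibroblasts on the way to pluripotency. The members are a named list: 8 genes of the steps to squalene, 10 of the steps after squalene, 4 regulators and 7 fatty acid enzymes. All 29 were found in each of the 5 tables, and each reached a mean of 1 in one or both groups of every comparison. The cells were 480 in all, 96 in each of 5 groups. BJ is the group of untreated BJ fibroblasts, a human skin fibroblast line and the starting material of all the others. D2 and D8 are BJ cells taken 2 and 8 days after induced expression of OCT4, SOX2, KLF4 and MYC (OSKM) from viruses. D16_pos and D16_neg are the day 16 cells that were positive and negative for TRA-1-60, a surface antigen of pluripotent cells. No label tells cultures, infections or chips within a group apart, so each group counts as 1 sample: values are described, no test was made, and a standard deviation (SD) is over cells, not over replicates.

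Cholesterol is built from acetyl-CoA through mevalonate and farnesyl diphosphate to squalene, and from squalene through lanosterol to the finished sterol. The transcription factor SREBP-2, made by SREBF2, is released from the endoplasmic reticulum when sterols are low and drives nearly all of these enzymes together, while INSIG1 holds it back. SREBP-1, made by SREBF1, acts more on fatty acid synthesis, where ACLY makes cytosolic acetyl-CoA, ACACA makes malonyl-CoA, FASN builds palmitate, and ELOVL6, SCD, FADS1 and FADS2 lengthen and desaturate the chain. Serum lipoproteins feed into the same control. The labels give fetal bovine serum for the expansion of BJ cells and a serum replacement for established pluripotent lines, and no medium for each day of OSKM expression, so day and medium cannot be told apart.

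After a filter on cell quality 460 of 480 cells were kept: 92 BJ, 96 D2, 92 D8, 95 D16_pos and 85 D16_neg. Levels are the deposited FPKM (fragments per transcript length and library total), rescaled to a sum of 1e+06 in each cell, and so are per length. A gene was counted as detected in a cell at a level of 1 or more. The median number of detected genes per cell was 5678, 5880.5, 5915, 5869 and 5871 in BJ, D2, D8, D16_pos and D16_neg. Cells with fewer than 4000 genes numbered 8, 15, 4, 32 and 3 in the same order. Read depth is unknown. Low values of neighbouring cells were compared for a common ratio, reached by at least 5% of shared genes, and 6 of 370 pairs had one. A share of cells carries an exact (Clopper-Pearson) 95% interval of at most 11.2 percentage points to either side, which covers counting of cells only. The labels held up on marker genes: COL1A1 averaged 635 in BJ cells, and NANOG averaged 172 in D16_pos cells against 0.639 in D16_neg cells. Of 22 fibroblast genes 10 averaged at least 10 in D16_pos cells, against 21 in D16_neg cells. Among 12 adipocyte genes PPARG alone reached that level in any group, at 18.7 in D16_pos cells, and none of 10 hepatocyte and steroidogenic genes did.

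The promoters of 4 members are shown because their genes were among those at least 2-fold higher at D8 than at D2 and between them carry both kinds of element that are textbook features of sterol genes. RefSeq windows (GRCh38.p14) from 250 bases before to 50 bases after the start were matched for 25 of the 29 members by symbol. No window was used for ACAT2, FDFT1, SQLE and FASN, so the counts of members with an element leave them out. FDFT1 and SQLE share a chromosome whose member windows were left out by rule. The windows of all genes were not filtered in this way. The windows below are all on the plus strand and read 5′ to 3′: FDPS at chr1:155308616-155308915, EBP at chrX:48521558-48521857, TM7SF2 at chr11:65111622-65111921 and SREBF2 at chr22:41832855-41833154. Capitals mark CCAAT on either strand (ATTGG where it lies on the other strand), the element bound by NF-Y, and in SREBF2 also TCACNCCAC, a sterol regulatory element read with 1 free base.
FDPS: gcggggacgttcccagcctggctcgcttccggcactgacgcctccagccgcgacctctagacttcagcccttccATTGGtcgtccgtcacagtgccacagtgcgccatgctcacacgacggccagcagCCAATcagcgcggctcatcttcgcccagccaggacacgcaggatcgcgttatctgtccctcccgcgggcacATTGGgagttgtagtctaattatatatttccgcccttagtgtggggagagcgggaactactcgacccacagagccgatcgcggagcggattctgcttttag
EBP: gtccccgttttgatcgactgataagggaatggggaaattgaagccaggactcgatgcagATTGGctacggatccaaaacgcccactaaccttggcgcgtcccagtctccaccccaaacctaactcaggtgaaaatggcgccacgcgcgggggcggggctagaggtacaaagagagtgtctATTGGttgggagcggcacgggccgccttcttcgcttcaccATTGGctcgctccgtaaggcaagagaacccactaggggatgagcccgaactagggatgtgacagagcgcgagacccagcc
TM7SF2: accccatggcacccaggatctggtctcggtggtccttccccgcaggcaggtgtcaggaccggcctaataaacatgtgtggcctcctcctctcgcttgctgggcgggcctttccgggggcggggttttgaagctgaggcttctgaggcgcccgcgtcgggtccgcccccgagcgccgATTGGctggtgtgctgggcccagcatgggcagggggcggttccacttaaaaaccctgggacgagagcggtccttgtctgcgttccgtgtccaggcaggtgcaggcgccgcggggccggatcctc
SREBF2: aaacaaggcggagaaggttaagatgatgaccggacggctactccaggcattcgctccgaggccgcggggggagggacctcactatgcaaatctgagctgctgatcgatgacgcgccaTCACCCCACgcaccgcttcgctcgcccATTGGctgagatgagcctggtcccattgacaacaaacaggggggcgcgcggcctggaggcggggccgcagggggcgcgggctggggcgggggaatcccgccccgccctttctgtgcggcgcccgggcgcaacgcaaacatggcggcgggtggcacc
FDPS and EBP each hold 3 CCAAT matches, TM7SF2 and SREBF2 each hold 1, and no 2 of the marked runs overlap.

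Searched on both strands, CCAAT lay in the windows of 20 of the 25 matched members, or 80%, and in 34.6% of all 35116 windows. Counted per gene it was in 42.9% of the 10970 genes that were measured in any comparison and had a window. It was found in each of the 11 matched members that were at least 2-fold higher at D8 than at D2. GGGCGG, the GC box bound by SP1, lay in 24 of 25 members, 44.95% of all windows and 73.7% of measured genes. TCACNCCAC lay in 1 member, SREBF2, in 1.13% of all windows and in 1.49% of measured genes, and CACGTG, an E-box, in 3 members (INSIG1, LSS and SC5D), or 12%, in 7.26% of all windows and in 12.1% of measured genes. These are matches of letters and not sites shown to be bound. Other spellings of the sterol regulatory element were not searched, so a window without a match may still hold one.

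The highest mean of the 5 groups fell in D16_pos for 17 of the 29 members, in D16_neg for 7, in D8 for 4 and in D2 for 1, the last being ACLY. No member was highest in BJ. This ranks means, which a few high cells can set, and medians were not ranked. DHCR7 counts for D16_pos, but without the highest cell of each group its mean was 66.8 in D16_pos and 89.6 in D8. Over the 15120 genes whose mean reached 1 in any group, the shares with the highest mean in BJ, D2, D8, D16_pos and D16_neg were 12.9%, 10.2%, 9.27%, 36.5% and 31.1%. FDPS, the synthase of farnesyl diphosphate, FDFT1, which joins 2 of these molecules into squalene, and ACAT2, the cytosolic thiolase at the entry to the pathway, had the 3 highest mean levels of the list in D2, D8, D16_pos and D16_neg, and in BJ EBP (143) came before FDFT1 (138). At the low end SREBF1 reached at most 4.20, in D16_neg cells.

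**Figure D1:**
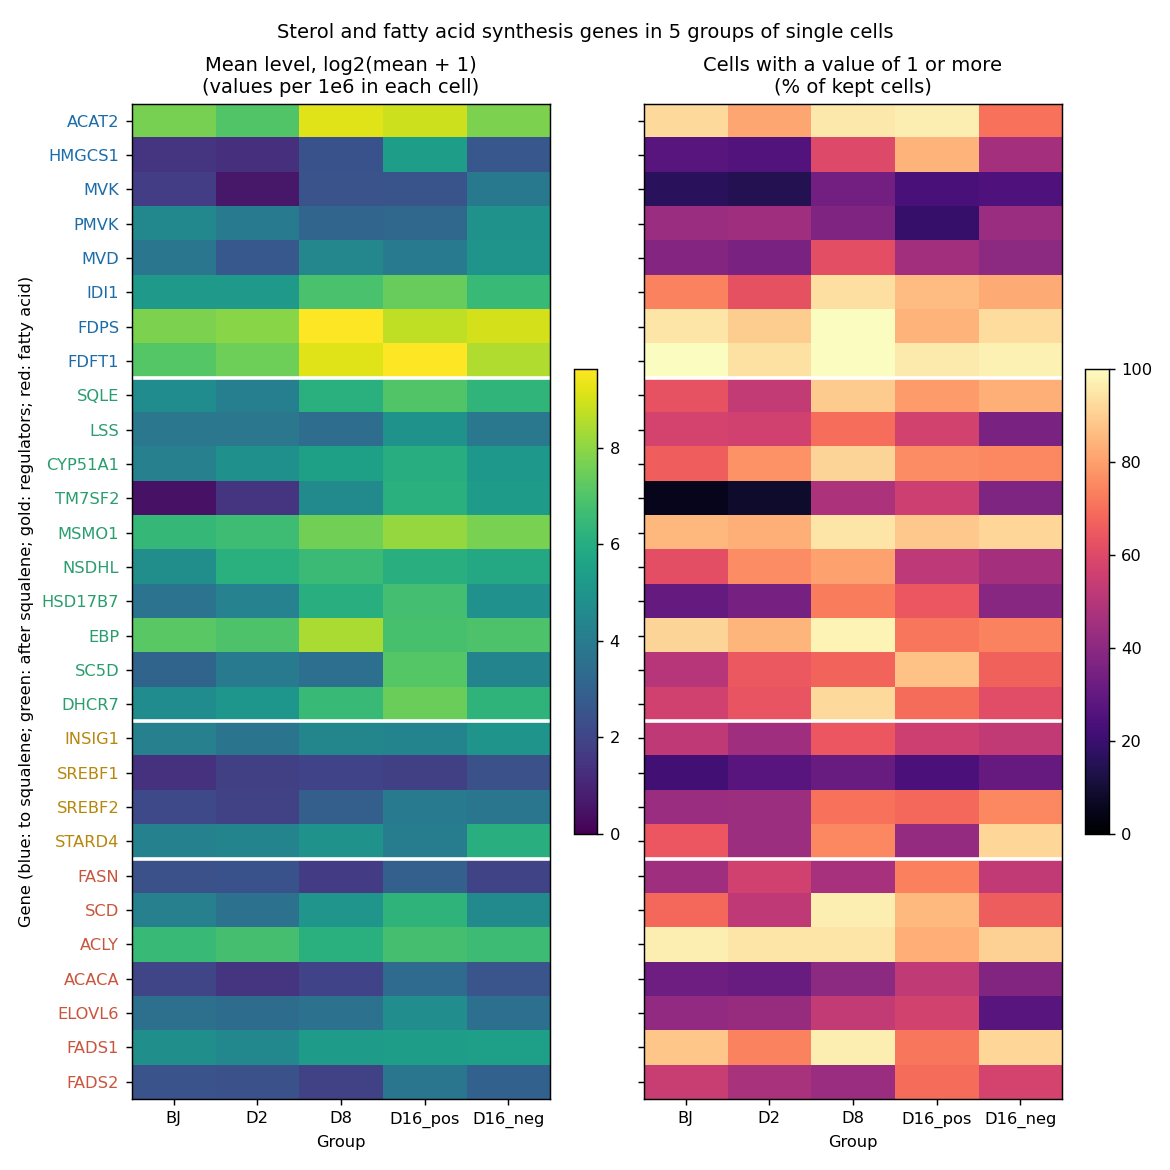
Mean level of each gene as log2(mean + 1) of the rescaled values (left) and share of kept cells with a level of 1 or more (right), for 29 genes (rows, coloured by role) in 5 groups (columns; D16_pos and D16_neg are the TRA-1-60 positive and negative day 16 cells). FDPS, FDFT1 and ACAT2 are the brightest rows, and TM7SF2 is dark in D2 and BJ, where 8.33% and 5.43% of cells had it.

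Summed over the 18 sterol steps, a cell held a median level of 837 in BJ, 814 in D2, 3028 in D8, 2702 in D16_pos and 1500 in D16_neg. The quartiles were 2170 and 3798 in D8, against 583 and 1362 in D2, so the ranges between the quartiles did not overlap. The lowest D8 cell, at 276, lay among the D2 cells. D16_pos cells had the widest range, between 41.1 and 13802, with quartiles of 1700 and 3754. As a share of all transcript levels, the sterol steps averaged 0.0979% in BJ, 0.102% in D2, 0.304% in D8, 0.311% in D16_pos and 0.194% in D16_neg. Genes of high level weigh most in these sums. In D8, with a mean sum of 3038, FDPS, FDFT1, ACAT2 and EBP averaged 784, 581, 577 and 344. The 7 fatty acid enzymes had a different course, with medians per cell of 112, 141, 147, 249 and 173 in the same order, and their quartiles overlapped between all groups. ACLY weighs most here, at a mean of 69.3 in D8, where the mean fatty acid sum was 158.

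**Figure D2:**
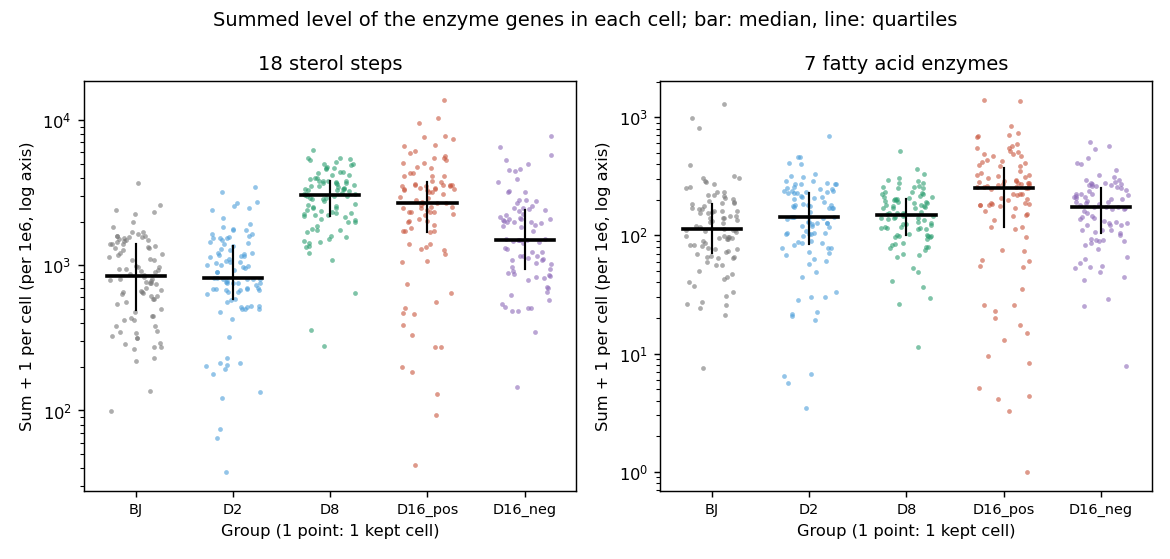
Sum of the levels of the 18 sterol step genes (left) and of the 7 fatty acid enzyme genes (right) in each kept cell, plus 1 on a log axis, by group. Each point is 1 cell, the bar the median and the line the quartiles: the sterol median is 3028 in D8 against 814 in D2, and the fatty acid median 147 in D8 against 141 in D2.

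In each comparison, a difference is the log2 ratio of the 2 group means after 1 was added to each, and a gene is called higher or lower when that ratio is past 1 in either direction, a 2-fold difference, and the difference of the mean log2 values has the same sign. Adding 1 understates the change of low genes. At D2, relative to BJ, few members passed this threshold. NSDHL, which removes a carboxyl group from the sterol ring, was the 1 member called higher, with a mean of 67.8 in D2 cells and 26.3 in BJ cells (log2 ratio 1.33), and 76.04% of D2 cells had it against 61.96% of BJ cells. MVK, mevalonate kinase, and MVD, which makes isopentenyl diphosphate, were the 2 called lower, at 0.547 in D2 against 2.34 in BJ and at 5.30 in D2 against 12.8 in BJ. Of all 12480 measured genes 12.2% were called higher and 12.1% lower, so neither count of members is above the background. MVK was detected in 14.6% of D2 cells and 16.3% of BJ cells, and without its single highest cell in each group its ratio was -0.81. The median log2 ratio was -0.33 over the steps to squalene, 0.50 over the steps after squalene, -0.07 over the regulators, -0.16 over the fatty acid enzymes and -0.02 over all genes. On FPKM as deposited 6 members were called higher and 1 lower in this comparison.

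At D8, relative to D2, 12 of the 18 sterol steps were called higher: 14 of 29 members were called higher at D8 and none lower, while 13% of all 12577 measured genes were called higher and 12.5% lower. By role these were 7 of 8 steps to squalene, 5 of 10 steps after squalene, 1 of 4 regulators and 1 of 7 fatty acid enzymes, with median log2 ratios of 1.68, 1.22, 0.64 and 0.18, and 0.06 over all genes. The members were listed with the higher level of sterol genes at this time already known, so the count describes these cells and is no independent evidence. Other marker sums were also higher at D8: the median per cell was 4209 in D8 and 818 in D2 for 16 epithelial genes, 1315 in D8 and 666 in D2 for 18 G2 and M phase genes, and 1529 in D8 and 1025 in D2 for 18 S phase genes. Their part in the difference of the sterol genes was not tested. Restricted to cells with at least 4000 genes, 12 members were called higher and none lower. On FPKM as deposited 10 members were called higher and 3 lower, the 3 being LSS (-1.50), SC5D (-2.63) and FASN (-4.91). The ratios of IDI1 (-0.78) and FDFT1 (-1.17) were also negative there, without a call. The totals of deposited FPKM ranged up to 7.49e+07 in D2 cells, with a median of 798970.

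Among the steps to squalene, ACAT2 had a median of 550 and quartiles of 382 and 774 in D8 cells, against a median of 74.5 and quartiles of 1.81 and 185 in D2 cells. Its mean was 577 ± 311 in D8 and 129 ± 195 in D2 (SD over 92 and 96 cells), a log2 ratio of 2.15. FDPS ranged between 48.7 and 2287 in D8 cells with a median of 708, and between 0 and 1031 in D2 cells with a median of 223. It was detected in all 92 D8 cells, against 89.6% of D2 cells. FDFT1 behaved alike, with a median of 598 in D8 and 121 in D2 and a log2 ratio of 1.68. IDI1, which isomerises isopentenyl diphosphate, averaged 115 in D8 and 35.8 in D2. The ranges between the quartiles of D8 and D2 cells did not overlap for any of these 4 genes, although their full ranges did. MVK and MVD averaged 4.55 and 20.8 in D8 against 0.547 and 5.30 in D2. The call of MVK was lost on mean log2 values (0.83) and with 10 added to each mean (0.46). Its median was 0 in both groups, with detection in 33.7% of D8 cells and 14.6% of D2 cells.

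HMGCS1, the synthase that makes HMG-CoA, remained low at 4.45 in D8 against 1.503 in D2, and 59.8% of D8 cells had it against 26.04% of D2 cells. In cells with at least 4000 genes its log2 ratio was 0.95 and it was not called. PMVK, phosphomevalonate kinase, was the exception among these steps, with 7.88 in D8 and 14.5 in D2 (log2 ratio -0.80, not called). ACAT2 overlaps TCP1 and SOD2 on the opposite strand, the counting is not stated to use strand, and TCP1 averaged 426 in D8 and 287 in D2. Its reads and those of ACAT2 cannot be told apart where the genes overlap. The same limit holds for MVK, which overlaps MMAB on the opposite strand. MMAB averaged 24.1 in D8 and 8.47 in D2, above MVK itself in both groups.

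Of the steps after squalene, TM7SF2, a sterol C14 reductase, had the highest log2 ratio, 3.15: it averaged 23.1 in D8 and 1.72 in D2 and was detected in 47.8% of D8 cells and 8.33% of D2 cells. A single D2 cell held 55.3% of the D2 sum of this gene, and without the highest cell of each group the means were 21.6 in D8 and 0.775 in D2. SQLE, the epoxidase that commits squalene to sterols, averaged 68.2 in D8 and 16.9 in D2. HSD17B7, a keto-sterol reductase, averaged 65.3 in D8 and 18.5 in D2. EBP, the sterol isomerase, averaged 344 ± 216 in D8 and 121 ± 176 in D2, and DHCR7, the reductase that ends one branch of the pathway, 91.8 in D8 and 32.6 in D2. MSMO1, a methylsterol oxidase, lay just under the threshold at a log2 ratio of 0.97, with 193 in D8 and 98.3 in D2. CYP51A1 (0.64), NSDHL (0.46), LSS (-0.35) and SC5D (-0.47) were not called. Lanosterol synthase (LSS) and the sterol desaturase SC5D had lower means at D8 than at D2 but differences of mean log2 values just above 0, at 0.05 and 0.07.

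SREBF2 was the 1 regulator called, barely, at 6.55 in D8 and 2.76 in D2 (log2 ratio 1.01). It fell under the threshold in cells with at least 4000 genes (0.92), on housekeeping scaling (0.81) and with all 96 cells (0.95), and turned to -0.28 on FPKM as deposited. INSIG1 averaged 20.4 in D8 and 12.1 in D2, STARD4, a sterol carrier, 29.01 in D8 and 19.2 in D2, and SREBF1 2.84 in D8 and 2.51 in D2. Among the fatty acid enzymes SCD, the stearoyl-CoA desaturase, was the 1 called higher, with a median of 28.6 in D8 and 1.57 in D2 and detection in 96.7% of D8 cells and 52.1% of D2 cells. FASN averaged 2.18 in D8 and 4.33 in D2, and ACLY 69.3 in D8 and 109.9 in D2, with negative log2 ratios of -0.74 and -0.66. FADS1 (0.80), ACACA (0.45), ELOVL6 (0.18) and FADS2 (-0.52) were not called. FADS1 and FADS2 overlap on opposite strands, with the same limit on telling their reads apart.

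**Figure D3:**
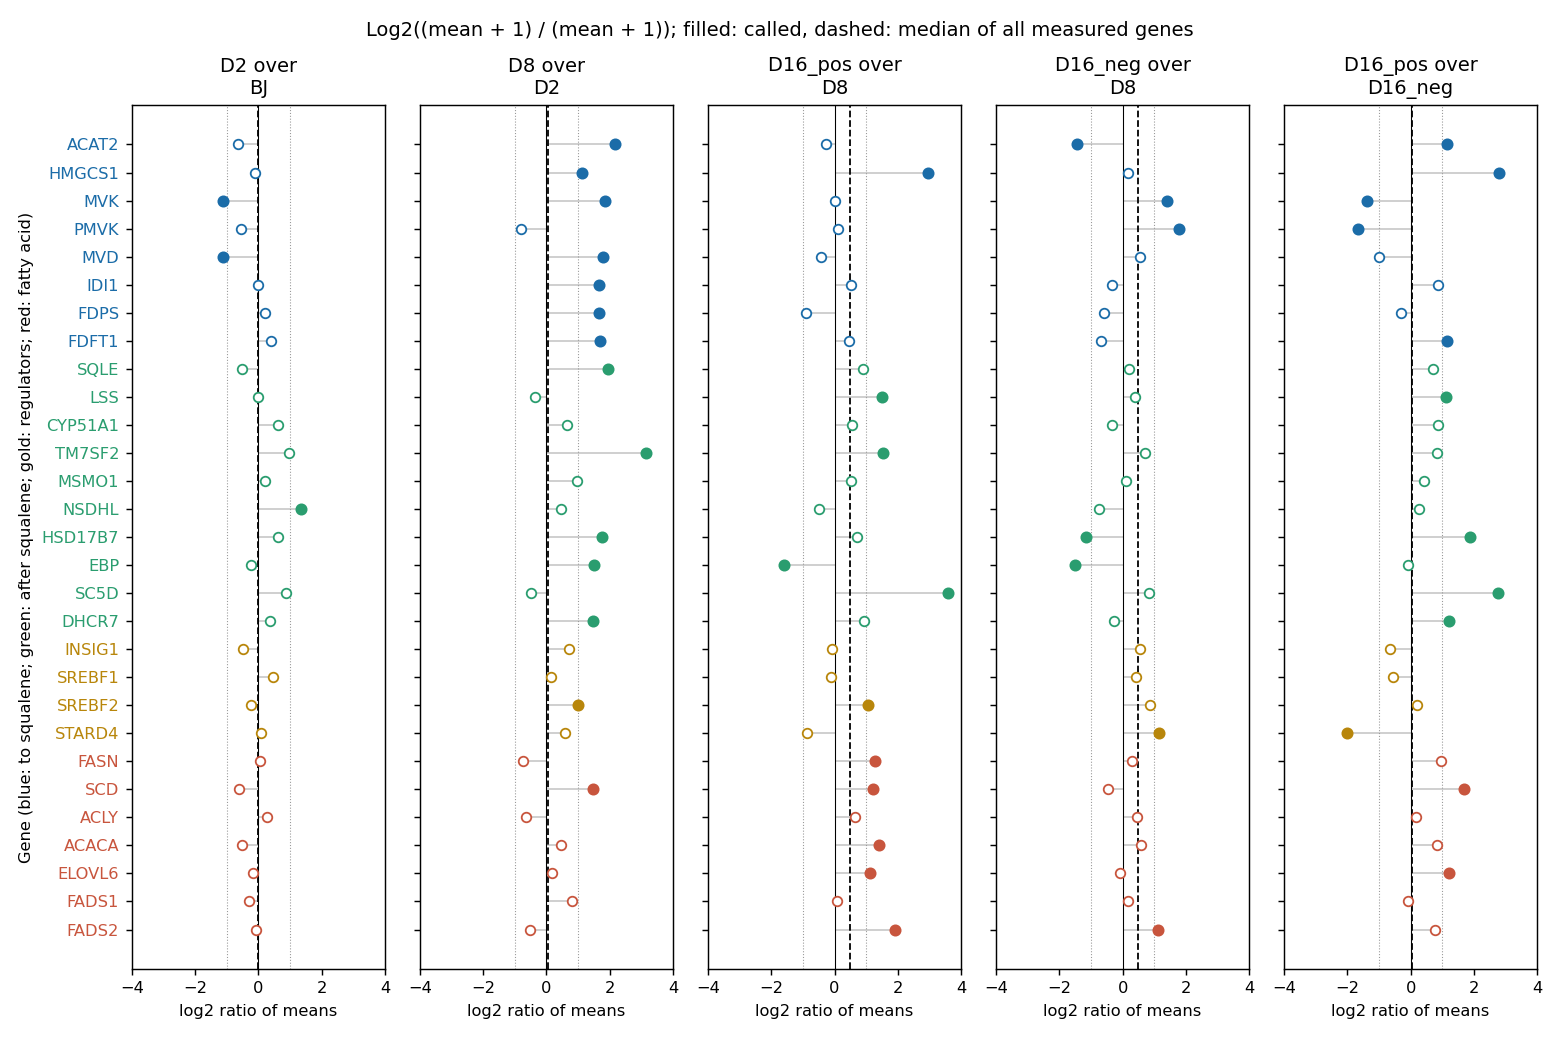
Log2 ratio of group means (1 added to each) for the 29 genes in 5 comparisons, coloured by role. Filled points are the calls of a 2-fold difference in either direction, dotted lines mark -1 and 1, and the dashed line is the median of all measured genes: 14 filled points lie to the right in D8 over D2 and none to the left.

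From day 8 the TRA-1-60 fractions differed. In D16_pos relative to D8, 10 members were called higher and 1 lower, beside 30.3% of all 13719 measured genes called higher and 11.6% lower, so the share of members called higher (34.5%) is near the background. By role these were 5 of 7 fatty acid enzymes (median log2 ratio 1.21, all genes 0.49), 3 of 10 steps after squalene, 1 of 8 steps to squalene and 1 of 4 regulators. Of the 10, HMGCS1, TM7SF2, SREBF2 and SCD had also been called higher at D8 than at D2. FASN averaged 6.69 in D16_pos and 2.18 in D8, ACACA 9.23 in D16_pos and 2.86 in D8, SCD 75.4 in D16_pos and 31.98 in D8, ELOVL6 25.2 in D16_pos and 11.03 in D8, and FADS2 12.7 in D16_pos and 2.68 in D8. Of these ELOVL6 was no longer called without its highest cell (log2 ratio 0.97), and 1 D16_pos cell held 36.1% of the FADS2 sum. With all 96 cells of each group FASN, SCD and ACACA were not called (0.81, 0.996 and 0.56). On mean log2 values FASN alone of the 5 was past the threshold (1.01), with FADS2 at 0.92, ACACA at 0.74, ELOVL6 at 0.31 and SCD at 0.29, and the median of the fatty acid enzymes was 0.31. With 10 added to each mean 1 of the 7 fatty acid enzymes was called. Detection of FASN was 73.7% in D16_pos and 46.7% in D8.

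The largest ratios over D8 were those of SC5D and HMGCS1. SC5D ranged between 0 and 2971 in D16_pos cells with a median of 62, and between 0 and 45.2 in D8 cells with a median of 8.40, a log2 ratio of 3.59. HMGCS1 had a median of 19.6 and a highest cell of 952 in D16_pos, against a median of 1.81 and a highest cell of 38.97 in D8 (log2 ratio 2.96). In both genes D16_pos reached levels that no D8 cell had, while D16_pos cells at 0 remained. TM7SF2 averaged 69.1 in D16_pos and 23.1 in D8, LSS 30.4 in D16_pos and 9.98 in D8, and SREBF2 14.8 in D16_pos and 6.55 in D8. EBP was the 1 member called lower, with a median of 74.9 in D16_pos and 355 in D8 and a log2 ratio of -1.58. FDPS had 421 ± 392 in D16_pos and 784 ± 405 in D8, and was detected in 84.2% of D16_pos cells.

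Mean levels and typical cells parted in this comparison. Over the sterol steps the median log2 ratio of means was 0.53, but the median difference of mean log2 values was -0.50, beside 0.49 and -0.09 over all genes. On mean log2 values 4 members were called higher and 7 lower, the 7 being ACAT2 (-1.08), FDPS (-2.68), NSDHL (-1.95), EBP (-3.02), DHCR7 (-1.72), STARD4 (-1.74) and FADS1 (-1.08). The number of cells with few detected genes was higher in D16_pos, as given above. In cells with at least 4000 genes 11 members were called higher and 1 lower on means, and on FPKM as deposited 7 higher and 3 lower. Calls on mean log2 values were not made in cells with at least 4000 genes alone. Why means and mean log2 values parted was not tested.

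**Figure D4:**
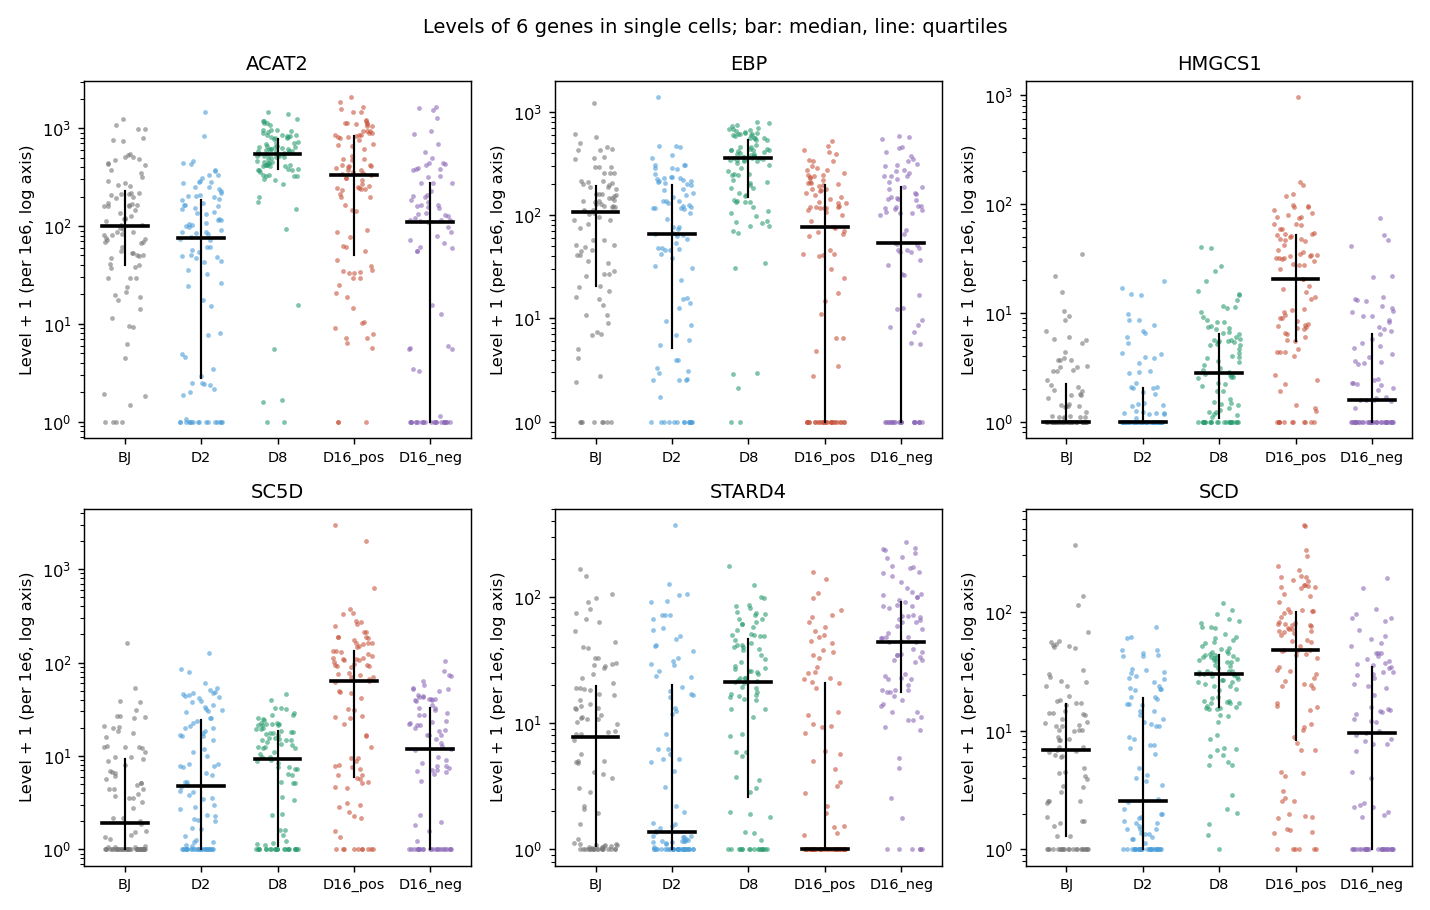
Levels of ACAT2, EBP, HMGCS1, SC5D, STARD4 and SCD in each kept cell, plus 1 on a log axis, by group. Each point is 1 cell, the bar the median and the line the quartiles: EBP is highest in D8 (median 355), HMGCS1 and SC5D in D16_pos (medians 19.6 and 62) and STARD4 in D16_neg (median 43.5).

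In D16_neg relative to D8 4 members were called higher and 3 lower, beside 28.4% and 10.6% of all 12965 measured genes. The 3 lower were sterol enzymes. ACAT2 had a median of 109 in D16_neg and 550 in D8, HSD17B7 averaged 28.7 in D16_neg and 65.3 in D8, and EBP averaged 121 in D16_neg and 344 in D8. The 4 higher were MVK, PMVK, STARD4 and FADS2. STARD4 had a median of 43.5 in D16_neg and 20.4 in D8 and was detected in 91.8% of D16_neg cells. PMVK averaged 29.4 in D16_neg and 7.88 in D8, and MVK 13.8 in D16_neg and 4.55 in D8, although MVK was detected in 24.7% of D16_neg cells and 33.7% of D8 cells. FADS2 was not called with all 96 cells (0.49), nor STARD4 on FPKM as deposited (0.86). The median log2 ratio of the 18 sterol steps was -0.08, beside 0.49 over all genes. The split was 2 higher and 7 lower on mean log2 values, 2 and 4 on FPKM as deposited, and 3 and 3 on housekeeping scaling.

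Within day 16, 9 members were called higher in D16_pos than in D16_neg and 3 lower, beside 24.8% and 21.4% of all 14060 measured genes. The 9 were ACAT2, HMGCS1 and FDFT1 before squalene, LSS, HSD17B7, SC5D and DHCR7 after it, and SCD and ELOVL6 among fatty acid enzymes. HMGCS1 averaged 41.4 in D16_pos and 5.19 in D16_neg, with detection of 84.2% in D16_pos and 45.9% in D16_neg. SC5D averaged 136 in D16_pos and 19.2 in D16_neg. HSD17B7 averaged 108 in D16_pos and 28.7 in D16_neg, SCD 75.4 in D16_pos and 22.8 in D16_neg, and ACAT2 477 in D16_pos and 214 in D16_neg. DHCR7 rested on 1 cell: a D16_pos cell at 10446 held 62.4% of its sum, the medians were 27.2 in D16_pos and 31.98 in D16_neg, and without the highest cell of each group the log2 ratio was -0.09. On mean log2 values 8 members were called higher in D16_pos and 4 lower. TM7SF2 (1.17) joined the higher, while FDFT1 (0.19) and DHCR7 (0.16) left them. FDPS (-1.26) and FADS1 (-1.13) joined the lower, while MVK (-0.36) left them. The ranges between the quartiles of the 2 fractions overlapped for the summed sterol steps, with 1700 and 3754 in D16_pos and 947 and 2413 in D16_neg.

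STARD4 went the other way, with a mean of 15.5 in D16_pos and 65.2 in D16_neg (log2 ratio -2.01), and a median of 0 in D16_pos. PMVK averaged 8.67 in D16_pos and 29.4 in D16_neg, and MVK 4.65 in D16_pos and 13.8 in D16_neg, the call of MVK being lost in cells with at least 4000 genes (-0.91). MVD missed the threshold at -0.99, with 15.1 in D16_pos and 30.96 in D16_neg. Each of these 3 genes was at a median of 0 in both fractions, and MVD was detected in 45.3% of D16_pos cells and 40% of D16_neg cells, MVK in 23.2% of D16_pos cells and 24.7% of D16_neg cells, and PMVK in 18.9% of D16_pos cells and 43.5% of D16_neg cells. SREBF2 averaged 14.8 in D16_pos and 12.7 in D16_neg, and FDPS 421 in D16_pos and 523 in D16_neg. G2 and M phase genes moved with the fractions: the median sum of 18 of them per cell was 2320 in D16_pos and 23.6 in D16_neg. The sum of 22 pluripotency genes per cell ranged between 490 and 19974 in D16_pos and between 0 and 4695 in D16_neg, and that of 22 fibroblast genes between 61.3 and 13823 in D16_pos and between 7325 and 42114 in D16_neg. Their part in the differences of sterol and fatty acid genes was not tested.

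Genes around the pathway were taken from lists made for this purpose, and at D8 relative to D2 their counts stand beside 13% of all measured genes called higher and 12.5% lower. Fatty acid oxidation was above that share, and the other lists of more than 4 measured genes had 2 called higher at most. Of 11 measured other sterol and isoprenoid genes 2 were called higher at D8 than at D2 and none lower: LBR, which has sterol C14 reductase activity, averaged 46.1 in D8 and 11.3 in D2, and PDSS2, a subunit of the enzyme that makes the side chain of coenzyme Q, 9.03 in D8 and 2.98 in D2. Of 11 measured genes for sterol uptake, transport and storage 1 was higher at D8 and none lower, namely VLDLR (8.57 in D8, 1.26 in D2). Fatty acid oxidation had 9 of 16 genes higher at D8 and none lower, with ETFB, an electron carrier of this route, at 384 in D8 and 102 in D2 and ACAA2, its mitochondrial thiolase, at 370 in D8 and 119 in D2. Of 20 measured other genes of fatty acid synthesis and elongation 1 was higher, IDH1, which makes cytosolic NADPH (140.3 in D8, 58.9 in D2), and 3 were lower, HACD1, OXSM and SCD5. Their differences of mean log2 values were -0.14 for HACD1, -2.87 for OXSM and -0.36 for SCD5, so the calls of HACD1 and SCD5 rest on means. The medians of these 4 lists were 0.68, 0.03, 1.07 and -0.06. Of the remaining lists at D8, glycerolipid synthesis had 1 of 11 genes higher (CHKA), the LXR and sterol efflux list 2 of 4 (CH25H and CYP27A1), and SREBP processing none of 7 in either direction. CH25H averaged 3.31 in D8 and 0.423 in D2, and CYP27A1 2.43 in D8 and 0.597 in D2. Both are low, with differences of mean log2 values of only 0.17 and 0.075. The alternatives of processing were not applied to any of these lists.

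At day 16, IDH1 averaged 876 in D16_pos and 139.9 in D16_neg. Among other sterol genes TMEM97 averaged 58.5 in D16_pos and 8.06 in D16_neg and LBR 43.6 in D16_pos and 14.4 in D16_neg, with 3 of 12 genes measured higher and 2 lower, near the 24.8% and 21.4% of all genes. SREBP processing genes were called in neither direction between the 2 fractions (0 of 7), but 4 of 7 were higher in D16_neg than in D8, beside 28.4% of all genes, MBTPS1, the site-1 protease, being at 67.2 in D16_neg and 16.3 in D8 and SCAP, the sterol sensor, at 22.5 in D16_neg and 6.47 in D8. In D16_pos 2 of 7 were higher than in D8, INSIG2 and SCAP, near the 30.3% of all genes.

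Within each group pairs of sterol enzymes were on average weakly correlated from cell to cell. The mean Spearman correlation over pairs of sterol step genes detected in at least 25% of a group's cells was 0.174 in BJ (120 pairs, 92 cells), 0.237 in D2 (120 pairs, 96 cells), 0.211 in D8 (153 pairs, 92 cells), 0.360 in D16_pos (120 pairs, 95 cells) and 0.224 in D16_neg (136 pairs, 85 cells). Over all pairs of the 8111 to 8501 genes detected as often, it was 0.0758, 0.0962, 0.0327, 0.152 and 0.0154. All genes of a cell share its library and its number of detected genes, and the mean log2 level of the sterol steps correlated with that number, with rho of 0.63, 0.61, 0.56, 0.79 and 0.42. Given the number of detected genes the mean over sterol pairs was 0.0974, 0.169, 0.171, 0.184 and 0.206, and over all gene pairs 0.0218, 0.0212, 0.0114, 0.0169 and 0.00111. The plain value of 0.360 in D16_pos was 0.200 in its cells with at least 4000 genes. The pairs of all genes were not matched to the sterol steps on level or on detection above 25%. The sterol genes counted also differ between groups, so the groups are not compared like for like. These are weak correlations in sparse data and are given as a description.

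**Figure D5:**
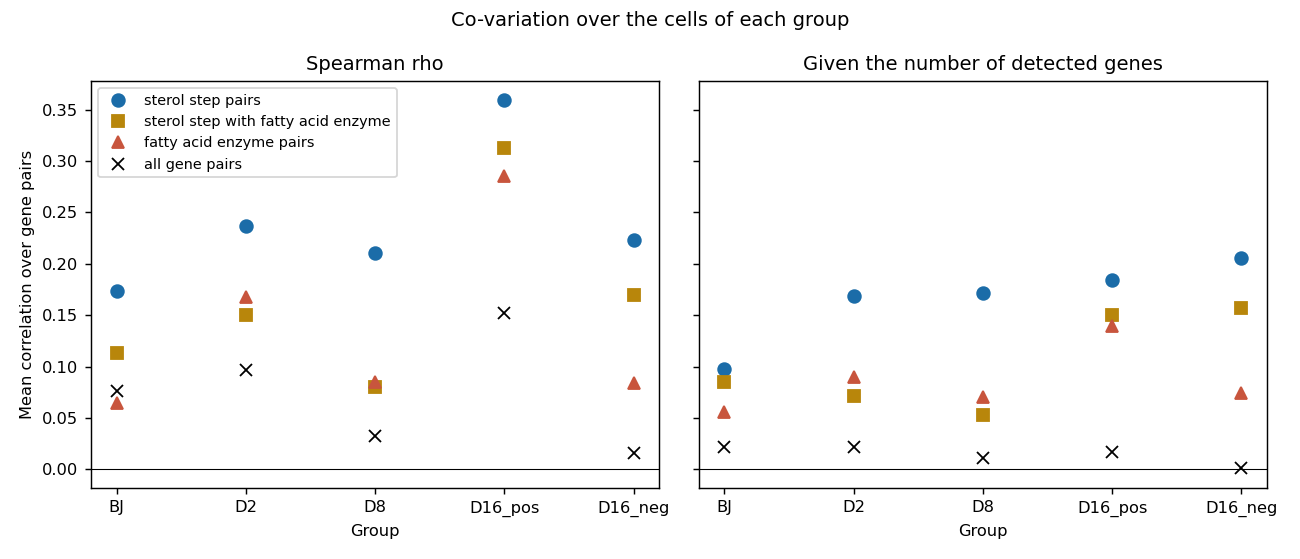
Mean correlation over gene pairs within the cells of each group, as Spearman's rho (left) and given the number of detected genes (right), for pairs of sterol steps, sterol steps with fatty acid enzymes, fatty acid enzymes and all genes. Sterol step pairs lie above all gene pairs, which are not matched on level, in each group, at 0.206 against 0.00111 in D16_neg on the right.

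The steps to squalene held together most, with a mean of 0.144, 0.225, 0.182, 0.285 and 0.218 given the number of detected genes in BJ, D2, D8, D16_pos and D16_neg, against 0.0533, 0.133, 0.141, 0.143 and 0.170 for the steps after squalene. These sets were not matched on level or detection. In D16_pos they were 15 pairs of 6 genes to squalene, without the sparse MVK and PMVK, and 45 pairs of 10 genes after it. Of 300 member pairs with a value in all groups, those with the highest median rho were ACAT2 with FDPS (0.57), ACAT2 with FDFT1 (0.54) and FDFT1 with MSMO1 (0.51), all among the most highly expressed members. ACAT2 with FDPS had 0.39, 0.31, 0.57, 0.70 and 0.59 in the 5 groups, and 0.32, 0.28, 0.55, 0.54 and 0.58 given the number of detected genes. Pairs of a fatty acid enzyme and a sterol step had 0.0847, 0.0709, 0.0526, 0.150 and 0.157 on the same measure, under the steps to squalene in each group but above the steps after squalene in BJ and D16_pos. Among single members, each correlated with the mean of the sterol steps other than itself, MSMO1 had 0.36, 0.62, 0.68, 0.45 and 0.64 given the number of detected genes, and INSIG1 0.34, 0.32, 0.47, 0.33 and 0.46. LSS (0.13, -0.02, 0.09, 0.33 and 0.19) and FASN (0.14, 0.04, -0.01, 0.19 and 0.33) were lower than MSMO1 in each group. PMVK had 0.11, 0.02 and -0.04 in BJ, D2 and D8 and -0.19 in D16_neg, and was detected in under 25% of D16_pos cells, where no value was taken.

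The genes outside the list most like the sterol steps were taken from 5933 genes detected in at least 25% of the cells of every group, by the median over the 5 groups of their correlation with the mean of the sterol steps given the number of detected genes. Among the highest were PDIA6 (0.37), ANXA2 (0.36), DDOST (0.34), CALU (0.34), YWHAZ (0.33), ACTB (0.31), ITGB1 (0.31), ENO1 (0.31) and PRMT1 (0.31), while the median of all these genes was 0.06. In D16_neg cells most of these were near or below 0, at -0.05 for PDIA6, 0.00055 for DDOST, 0.04 for CALU, -0.01 for YWHAZ, -0.14 for ITGB1 and 0.04 for PRMT1, while ANXA2 had 0.37, ACTB 0.35 and ENO1 0.16. Against the mean log2 level of marker lists, that of the sterol steps had correlations given the number of detected genes of 0.06, 0.37, 0.19, 0.21 and -0.25 with fibroblast genes in the 5 groups, from BJ to D16_neg. They were -0.05, -0.21, -0.09, -0.18 and -0.16 with pluripotency genes, and 0.14, -0.07, 0.21, 0.32 and -0.07 with S phase genes. With epithelial genes and with G2 and M phase genes they lay between -0.20 and 0.06 in all 5 groups.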

How the data were processed

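RNA of 480 single cells was captured on Fluidigm C1 chips, and libraries were made with Nextera XT, per the labels' protocols. The values are FPKM, deposited by the authors in 1 table per group. STAR, Cuffnorm and hg19 are named in the submitters' processing notes, and the versions and strand setting are not given in the sources used here. Cells were kept with at least 2000 genes at 1 or more and ACTB or GAPDH at 1 or more, and values were rescaled to a sum of 1e+06 per cell. Differences are log2((mean + 1)/(mean + 1)), called at 2-fold for genes whose mean reached 1 in either group. Correlations are over cells within a group, plain or between ranks after regression on the number of detected genes. No test was made, since each group is 1 sample. Python 3.11.15, numpy 2.4.6, pandas 2.3.3, scipy 1.17.1 and matplotlib 3.10.9 were used, and the steps were tested on simulated data. No 2 kept cells had identical values. Of the other lists, up to 4 called genes per list and comparison qualify to be named, by size of the ratio, and outside them the 10 genes most correlated with the sterol steps. Some genes of these lists and of these correlations are not reported here, and the counts and medians of the lists are without them. The members and lists were chosen with earlier results of these data known. Alternatives changed the scaling (deposited FPKM, housekeeping genes, totals without small RNA), the added constant, the minimum mean, the cells kept, the mean and the correlation. One, which leaves out the highest cell of each gene, was chosen after seeing the data.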

Additional observations from a re-analysis of the deposited data

How the results depend on the processing

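No paired analysis was possible because the replicate numbers name single cells of 1 sample per group and the result comes from no test. For D2 over BJ, the count of members called higher (1) became 6 on FPKM as deposited, 2 with 0.1 added, 2 in cells with at least 4000 genes, 3 without the 5% of cells with most genes and 2 without the highest cell of each gene, and the count called lower (2) became 1, 0 with 10 added, 1 on mean log2 values and 1 without the highest cell. For D8 over D2, members called lower became 3 on FPKM as deposited, namely LSS (-1.50), SC5D (-2.63) and FASN (-4.91). The log2 ratios of IDI1, FDFT1 and SREBF2, which are not among the 3, were -0.78, -1.17 and -0.28 there, against 1.66, 1.68 and 1.01. The 14 called higher stayed within 1.5 times under all alternatives. For D16_pos over D8, the 10 higher became 5 with 10 added and 4 on mean log2 values, and the 1 lower became 3 on FPKM as deposited and 7 on mean log2 values. For D16_neg over D8, the 4 higher became 2 on FPKM as deposited, 1 with 10 added and 2 on mean log2 values, and the 3 lower became 7 on mean log2 values. For D16_pos over D16_neg neither count moved by more than 1.5 times, although the 3 lower became 2 with 10 added and in cells with at least 4000 genes, and the log2 ratio of DHCR7 turned to -0.0897 without its highest cell. The cause of these changes was not tested. Scaling on housekeeping genes moved the median log2 ratio of all genes to -0.23 for D2 over BJ (from -0.02), 0.78 for D16_pos over D8 (from 0.49) and 0.40 for D16_pos over D16_neg (from 0.06), so the levels of D16_pos are relative to the total of each cell. Totals without small RNA and mitochondrial genes kept 145 of 145 calls. The mean rho of sterol step pairs in BJ, D2, D8, D16_pos and D16_neg was 0.156, 0.220, 0.186, 0.325 and 0.228 on FPKM as deposited and 0.0974, 0.169, 0.171, 0.184 and 0.206 given the number of detected genes. In cells with at least 4000 genes it was 0.160, 0.187, 0.200 and 0.200 in BJ, D2, D8 and D16_pos. Pearson's r gave 0.164 in BJ and 0.196 in D16_neg, and genes detected in at least 50% of cells 0.207, 0.280, 0.353 and 0.346 in BJ, D8, D16_pos and D16_neg. Depth is unknown, and genes detected in few cells, such as MVK, rest on few values.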
